A study of Caenorhabditis elegans with 8 samples.

Results

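The 9 genes described here, *cbd-1*, *cpg-1*, *cpg-2*, *cpg-3*, *perm-2*, *perm-4*, *chs-1*, *egg-1* and *egg-2*, encode proteins that build the eggshell and its chitin layer or organise its assembly at the surface of the *Caenorhabditis elegans* oocyte. They were taken by name from the 39684 gene symbols to which the RefSeq transcripts of the count tables could be matched, and each gene was represented by its transcript with the highest mean raw count. All 9 had enough reads to be tested. None passed edgeR's test of *ztf-11* KD against control embryos, as was the case for every transcript tested, that of *ztf-11* included (0% called). DESeq2, the method the study used, also called none of the 9 genes, beside 2.64% of the transcripts it tested. In each of the 9 genes the values of the 2 conditions overlapped, and only 6.07% of all tested transcripts did not overlap, so that these counts are near those of the whole table. In each of the 9 genes the *ztf-11* KD cultures alone spanned a wider range than the difference between the means of the conditions.

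The study asked which genes change when the Myt1-family zinc finger factor ZTF-11, a regulator of neuronal fate, is depleted. Embryos came from 4 cultures of mothers fed bacteria that make double-stranded RNA against *ztf-11* (*ztf-11* KD) and from 4 cultures of mothers fed bacteria with the empty vector L4440 (control). Every culture was of strain TV23837, which carries *eri-1(mg366)*, a mutation that makes animals hypersensitive to RNAi, and *ztf-11* tagged with *gfp* and flanked by loxP sites (*ztf-11(wy1100)*), with the transgenes *oxIs322* and *ynIs49* also present in both conditions. Synchronized larvae were fed for 64 hours at 20 °C on plates with 1 mM IPTG, eggs were released from the adults by bleaching and kept in M9 buffer for 3 hours, the eggshell was digested with chymotrypsin and chitinase, and polyadenylated RNA of the whole embryos was sequenced with a stranded library kit. The labels give the tissue as mixed, and each library pools the embryos of 1 culture, so that embryos of several ages can be present in it. The digestion removes eggshell protein and chitin and measures none of it, and the values below are RNA levels at 1 time point.

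The nematode eggshell is laid down from the outside inwards within minutes of fertilization, around the embryo as it completes meiosis. The oocyte is covered by a vitelline layer beforehand, sperm entry starts the synthesis of a chitin layer beneath it, and the release of cortical granules then adds a layer of chondroitin proteoglycans. These proteins are made in the germ line of the mother, and their RNAs are loaded into the oocyte and are known as maternal RNAs that are cleared as embryonic transcription begins. A single time point does not follow that loss, and in whole-embryo libraries fewer young embryos in a culture and less RNA per embryo cannot be told apart.

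The libraries held between 39343105 and 44933700 counts in *ztf-11* KD and between 39494873 and 45609675 in control embryos. CPM, the unit of all levels below, are counts scaled to a common library size after TMM correction. *ztf-11* itself was at 9.42, 10.96, 14.7 and 9.98 CPM in the *ztf-11* KD libraries, against 36.6, 68.4, 31.2 and 40.9 CPM in control libraries, so that its mean was 74.5% lower in *ztf-11* KD embryos (log2 fold change -1.97, SE 0.27, n = 4 each). Its adjusted p was 0.262 in edgeR's quasi-likelihood test and 1.21e-07 in DESeq2. In edgeR 0 of 14328 transcripts passed the threshold of an adjusted p under 0.1 (0%) and 1832 had an unadjusted p under 0.05 (12.8%), 1261 of them higher (8.8%) and 571 lower (3.99%) in *ztf-11* KD embryos. DESeq2 called 435 of 16501 (2.64%). On the first principal component, with 54.7% of the variance, control replicate 2 stood apart at 116, with the other libraries between -83.3 and 50.4.

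None of the 9 eggshell genes was called in edgeR or in DESeq2, and none had an unadjusted p under 0.05 in edgeR. The fitted difference was above 0 for 4 genes and below 0 for 5, in a table in which 50.8% of all transcripts tested were below 0. The median log2 fold change of the 9 genes was -0.088, against -0.0088 over all 14328 transcripts. In 0 of 9 genes did all *ztf-11* KD libraries lie on the same side of all control libraries, which held for 6.07% of all transcripts tested (3.61% with *ztf-11* KD above and 2.46% with *ztf-11* KD below). The 95% intervals of the 9 differences all included 0, and the widest were those of *perm-2* and *perm-4*, the least counted of the genes. Without control replicate 2, the library that stood apart, 6 of the 9 genes were above 0 and 3 below, the median was 0.085, and again none was called.

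**Figure D1:**
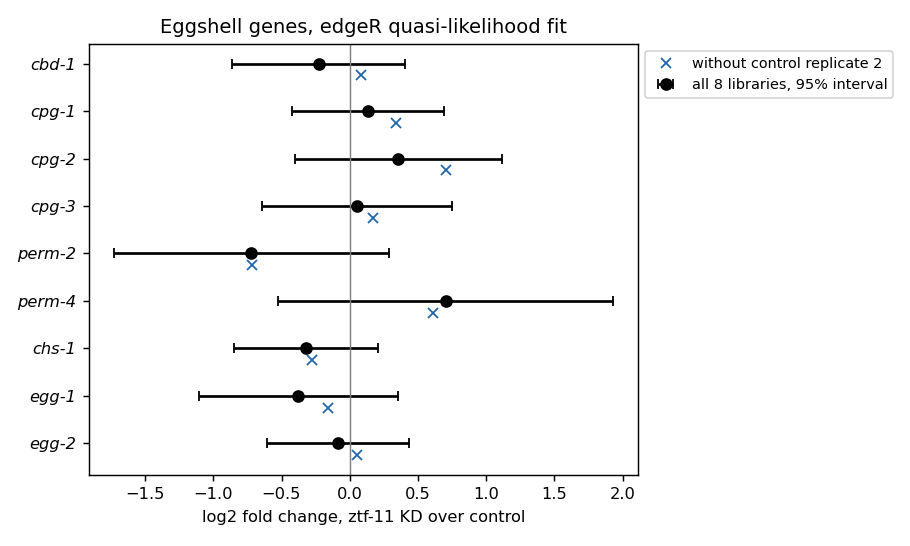
Log2 fold change of *ztf-11* KD over control embryos for each eggshell gene (x axis) from edgeR's quasi-likelihood fit, with filled points and bars for the estimate and its 95% interval over all 8 libraries and crosses for the estimate without control replicate 2. Every interval includes 0, from -1.73 to 0.29 for *perm-2* and from -0.52 to 1.93 for *perm-4*, and the crosses of *cbd-1* and *egg-2* lie on the other side of 0 from their points.

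Per kilobase of coding sequence (lengths from the WBcel235 annotation), the chondroitin proteoglycan genes *cpg-1* and *cpg-2* had the highest levels of the group. Over all 8 libraries *cpg-1* averaged 24.5 and *cpg-2* 23.7 CPM per kilobase, at the 59.8 and 59.2 percentiles of 11466 tested transcripts with a coding length. *cbd-1* followed at 9.57 CPM per kilobase (percentile 44.5), then *egg-2* at 4.08 and *egg-1* at 3.98. The order ended with *chs-1* at 2.76, *cpg-3* at 2.68, *perm-2* at 1.62 and *perm-4* at 1.19 CPM per kilobase (percentile 16.7). Only the steps below *cpg-2*, below *cbd-1* and below *cpg-3* were larger than the SD over the 8 libraries of the genes on either side, and all other neighbours in this order lay closer than the larger SD of the pair. In raw reads the group spanned a mean of 1818 counts per library for *cpg-1* to 42.3 for *perm-2*, so counting error was 2.35% of the level for *cpg-1* and 15.4% for *perm-2* (CV at the mean count).

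CBD-1, PERM-2 and PERM-4 belong to the vitelline layer, the outermost layer of the eggshell. CBD-1 is a large protein with many chitin-binding domains that joins this layer to the chitin layer beneath. *cbd-1* was at 42.1, 37.3, 34.0 and 26.2 CPM in the *ztf-11* KD libraries, against 26.5, 65.5, 42.5 and 28.9 CPM in control libraries. The *ztf-11* KD values lay inside the control range except replicate 4, which was just below it, and the control values were spread more widely, with replicate 2 far above the rest. *cbd-1* averaged 34.9 ± 6.67 CPM in *ztf-11* KD and 40.9 ± 17.9 CPM in control embryos (SD, n = 4 each), and the fitted log2 fold change was -0.23 (SE 0.29, edgeR adjusted p = 0.7). Without control replicate 2 the difference was 0.085.

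PERM-2 and PERM-4 are partners of CBD-1 in the vitelline layer, and embryos without them have a leaky shell. *perm-2* was at 1.23, 0.471, 0.450 and 0.841 CPM in the *ztf-11* KD libraries, against 1.22, 1.28, 1.26 and 1.16 CPM in control libraries. The controls were almost level and replicate 1 of *ztf-11* KD lay among them, while the other *ztf-11* KD replicates were below every control. *perm-2* averaged 0.747 ± 0.366 CPM in *ztf-11* KD and 1.23 ± 0.053 CPM in control embryos (SD, n = 4 each). The spread of the controls was 4.31% of their mean, below the 15.4% of counting error alone at the mean count. The log2 fold change of *perm-2* was -0.72 (SE 0.45, edgeR adjusted p = 0.464), the lowest of the 9 genes, and rested on 18 to 57 counts per library.

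*perm-4* was at 2.76, 0.636, 1.00 and 1.48 CPM in the *ztf-11* KD libraries, against 0.524, 0.735, 1.55 and 0.791 CPM in control libraries. Replicate 1 of *ztf-11* KD was above every control, and the other *ztf-11* KD replicates lay within the control range. *perm-4* averaged 1.47 ± 0.93 CPM in *ztf-11* KD and 0.9002 ± 0.449 CPM in control embryos (SD, n = 4 each). Its log2 fold change of 0.70 (SE 0.55, edgeR adjusted p = 0.541) was the highest of the 9 genes and was 0.21 without *ztf-11* KD replicate 1. *perm-4* varied most across the cultures, with a highest value 5.26 times the lowest.

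CHS-1 is the chitin synthase of the zygote and makes the polymer of the chitin layer, without which no eggshell forms. *chs-1* was at 7.96, 7.31, 10.6 and 13.1 CPM in the *ztf-11* KD libraries, against 11.14, 13.6, 13.9 and 10.1 CPM in control libraries. Replicates 1 and 2 of *ztf-11* KD were below every control, and replicates 3 and 4 lay within the control range. *chs-1* averaged 9.74 ± 2.65 CPM in *ztf-11* KD and 12.2 ± 1.84 CPM in control embryos (SD, n = 4 each), and the fitted log2 fold change was -0.32 (SE 0.24, edgeR adjusted p = 0.52). Leaving out single libraries put the estimate for *chs-1* between -0.50 (without *ztf-11* KD replicate 4) and -0.21 (without *ztf-11* KD replicate 2).

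EGG-1 and EGG-2 are closely related membrane proteins with LDL-receptor repeats on the oocyte surface, needed for sperm entry and for eggshell formation. *egg-1* was at 7.30, 6.88, 4.02 and 4.69 CPM in the *ztf-11* KD libraries, against 5.70, 10.6, 8.91 and 4.50 CPM in control libraries. Only replicate 3 of *ztf-11* KD lay outside the control range, just below it. *egg-1* averaged 5.72 ± 1.61 CPM in *ztf-11* KD and 7.43 ± 2.82 CPM in control embryos (SD, n = 4 each), and the fitted log2 fold change was -0.38 (SE 0.33, edgeR adjusted p = 0.579) and -0.16 without control replicate 2. *egg-2* was at 6.99, 6.88, 6.22 and 5.93 CPM in the *ztf-11* KD libraries, against 4.91, 8.99, 7.07 and 6.69 CPM in control libraries. All *ztf-11* KD values of *egg-2* fell inside the control range, and *egg-2* varied least of the 9 genes, with a highest value 1.83 times the lowest. It averaged 6.51 ± 0.51 CPM in *ztf-11* KD and 6.92 ± 1.67 CPM in control embryos (SD, n = 4 each), and the fitted log2 fold change was -0.088 (SE 0.23, edgeR adjusted p = 0.871). The fitted difference of *egg-2* was 0.051 without control replicate 2. Only uniquely mapped reads were counted, so reads that fit both paralogs are missing and the levels of *egg-1* and *egg-2* are uncertain to that extent.

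CPG-1 and CPG-2 are chondroitin proteoglycans that also bind chitin, and together they form the layer inside the chitin layer that keeps the embryo away from the shell. *cpg-1* was at 54.3, 52.4, 40.7 and 32.2 CPM in the *ztf-11* KD libraries, against 32.9, 57.5, 45.0 and 28.1 CPM in control libraries. All *ztf-11* KD values lay inside the control range. *cpg-1* averaged 44.9 ± 10.4 CPM in *ztf-11* KD and 40.9 ± 13.2 CPM in control embryos (SD, n = 4 each), and the fitted log2 fold change was 0.14 (SE 0.25, edgeR adjusted p = 0.804) and 0.34 without control replicate 2. The tables list 2 transcripts of *cpg-1*, of which the other had 0 counts in every library, and how reads on shared exons were assigned is not given in the sources used here.

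*cpg-2* was at 56.9, 48.7, 37.8 and 24.1 CPM in the *ztf-11* KD libraries, against 22.6, 54.4, 31.5 and 22.2 CPM in control libraries. Replicates 1, 2 and 3 of *ztf-11* KD were above all controls except replicate 2, which was higher than *ztf-11* KD replicates 2, 3 and 4. *cpg-2* averaged 41.9 ± 14.2 CPM in *ztf-11* KD and 32.7 ± 15.1 CPM in control embryos (SD, n = 4 each), and the fitted log2 fold change was 0.36 (SE 0.34, edgeR adjusted p = 0.612). Without control replicate 2 the log2 fold change of *cpg-2* was 0.71, with an unadjusted p of 0.0318 and an adjusted p of 0.528 in edgeR.

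CPG-3 is a smaller chondroitin proteoglycan of the cortical granules. *cpg-3* was at 3.04, 2.36, 2.08 and 2.10 CPM in the *ztf-11* KD libraries, against 2.32, 2.94, 1.55 and 2.42 CPM in control libraries. The values of the 2 conditions were interleaved, with replicate 1 of *ztf-11* KD the highest and replicate 3 of the controls the lowest. *cpg-3* averaged 2.39 ± 0.45 CPM in *ztf-11* KD and 2.31 ± 0.57 CPM in control embryos (SD, n = 4 each), and the fitted log2 fold change was 0.05 (SE 0.31, edgeR adjusted p = 0.945), from 70 to 124 counts per library.

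**Figure D2:**
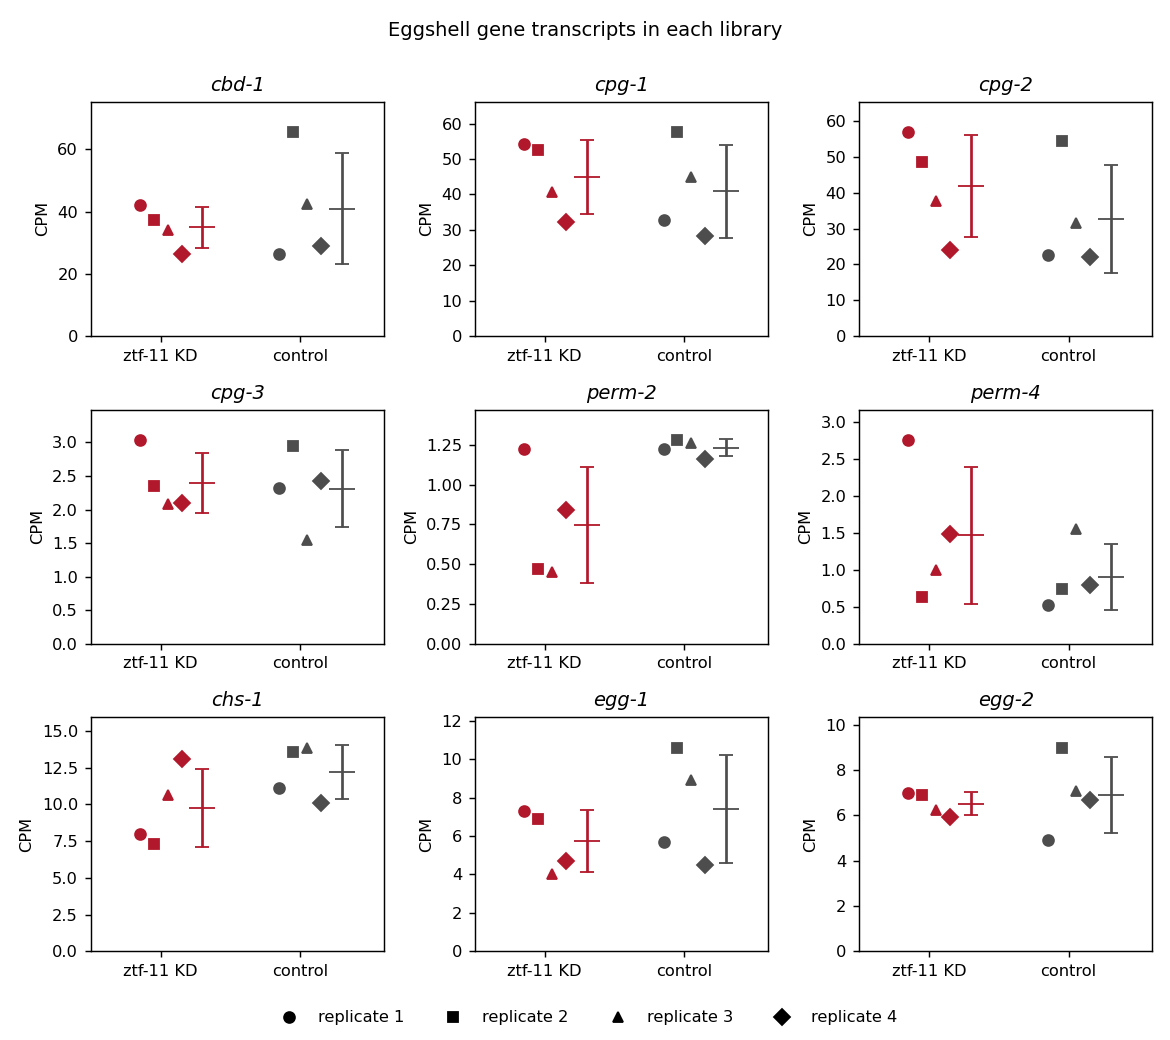
Level of each eggshell gene in CPM (y axis, from 0, a scale for each gene) in the 4 *ztf-11* KD libraries (red, left) and the 4 control libraries (grey, right), with the symbol giving the replicate number and the bar the mean and SD. The conditions overlap in all 9 panels, control replicate 2 is the highest library for *cbd-1*, *cpg-1*, *perm-2*, *egg-1* and *egg-2*, and the *perm-2* controls lie between 1.16 and 1.28 CPM.

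The cultures differed in these RNAs irrespective of condition. The mean over the 9 genes of log2 CPM, each gene set to 0 at its own mean over the 8 libraries, was 0.37, -0.11, -0.21 and -0.15 in the *ztf-11* KD libraries, against -0.27, 0.43, 0.18 and -0.23 in control libraries. Each condition thus held a culture near the top of the range and cultures near its bottom, 0.70 apart on the log2 scale over all. The summed level of the 9 genes ran between 110.7 and 182.6 CPM in *ztf-11* KD and between 104.9 and 215.5 CPM in control embryos. Without control replicate 2 the range of the mean level was 0.60.

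**Figure D3:**
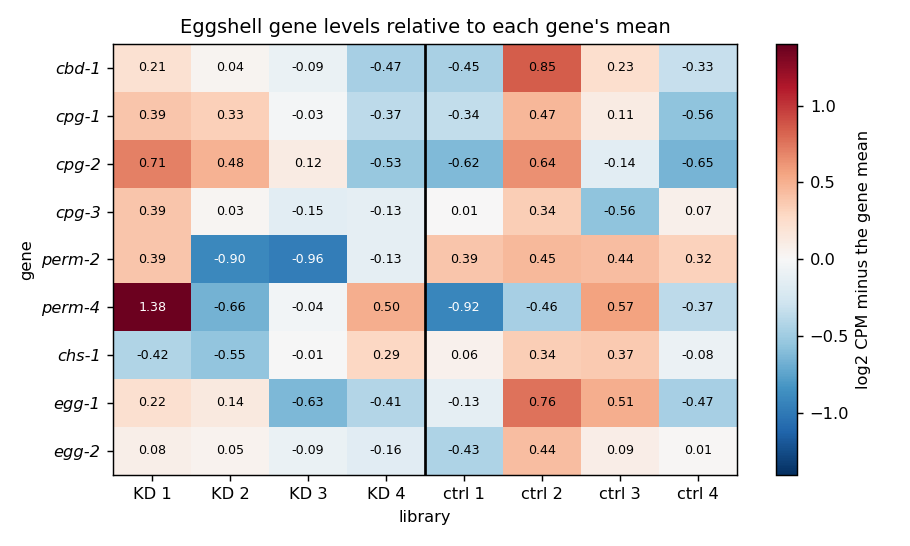
Log2 CPM of each eggshell gene (rows) in each library (columns, *ztf-11* KD left of the black line and control right of it), minus the mean of that gene over the 8 libraries, with red above and blue below the mean. *cbd-1*, *cpg-1* and *cpg-2* are above their means in *ztf-11* KD replicate 1 and control replicate 2 and below them in *ztf-11* KD replicate 4 and control replicates 1 and 4, and *chs-1* is at -0.42 in *ztf-11* KD replicate 1 and at 0.29 in *ztf-11* KD replicate 4.

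*cbd-1*, *cpg-1*, *cpg-2*, *egg-1* and *egg-2* followed each other across the libraries. Pearson's r of log2 CPM was above 0.5 for all 10 pairs of these genes, a grouping chosen after the values were seen, and lay between 0.60 and 0.96. The range was 0.42 to 0.95 without control replicate 2 and 0.68 to 0.97 after the mean of each condition was taken out. *chs-1* did not go with them, with r between -0.43 and 0.42 against the other 8 genes. Without control replicate 2 the r of *chs-1* ran from -0.77 (with *cpg-3*) to 0.34 (with *perm-2*). In that setting it was -0.70 with *cpg-2* and -0.54 with *cpg-1*. *cpg-3*, *perm-2* and *perm-4* had no r above 0.5 with any of the others over the 8 libraries. After the condition means were taken out, however, *perm-2* with *perm-4* reached 0.77, and without control replicate 2 *perm-4* reached 0.53 with *cbd-1* and 0.52 with *egg-2*. These rarer RNAs had the largest counting CVs of the group, at 10.0% for *cpg-3*, 15.4% for *perm-2* and 14.2% for *perm-4*. For *perm-4* the CV between cultures was well above that, at 63.0% (*ztf-11* KD) and 49.9% (control). Whether counting error lowered their r was not tested. Of all 36 pairs 29 were above 0. These values describe 8 libraries, and the genes of a pair share each library, its depth and its mix of embryos.

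Because the cultures differed, the genes were also compared with each other inside each library. Of the 36 ratios between eggshell genes, 5 (13.9%) had all *ztf-11* KD libraries on the same side of all control libraries, against 6.54% of all pairs of tested transcripts. The ratios share genes and are not independent of each other, and no test was made on them. The ratio of *cbd-1* to *cpg-2* was lower, at 0.739 to 1.09 in *ztf-11* KD and 1.17 to 1.35 in control embryos. The ratio of *cpg-1* to *egg-1* was higher, at 6.87 to 10.1 in *ztf-11* KD and 5.06 to 6.26 in control embryos. That of *cpg-2* to *egg-1* was 5.14 to 9.38 in *ztf-11* KD and 3.54 to 5.13 in control embryos, with almost no gap between the conditions. The like ratios of *cbd-1* to *cpg-1* and to *cpg-3*, of *cpg-3* to *egg-1*, and of the *cpg* genes to *egg-2* all overlapped.

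The other ratios that did not overlap involved *perm-2*. The ratio of *cpg-3* to *perm-2* was 2.48 to 5 in *ztf-11* KD and 1.23 to 2.30 in control embryos. The ratio of *perm-4* to *perm-2* was 2.25, 1.35, 2.22 and 1.76 in the *ztf-11* KD libraries, against 0.429, 0.574, 1.23 and 0.681 in control libraries. *perm-4* thus had more reads than *perm-2* in every *ztf-11* KD library and fewer in all controls except replicate 3. The gap between the closest libraries was small next to counting error, with exact 95% intervals of 0.729 to 2.54 in *ztf-11* KD replicate 2 and 0.853 to 1.77 in control replicate 3. *perm-2* and *perm-4* are neighbours on chromosome IV, on opposite strands and 1682 bases apart in the WBcel235 annotation. The ratio of *egg-1* to *egg-2*, by contrast, overlapped, at 0.647 to 1.04 in *ztf-11* KD and 0.672 to 1.26 in control embryos, and so did that of *chs-1* to *cpg-1*, at 0.139 to 0.406 in *ztf-11* KD and 0.236 to 0.359 in control embryos.

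**Figure D4:**
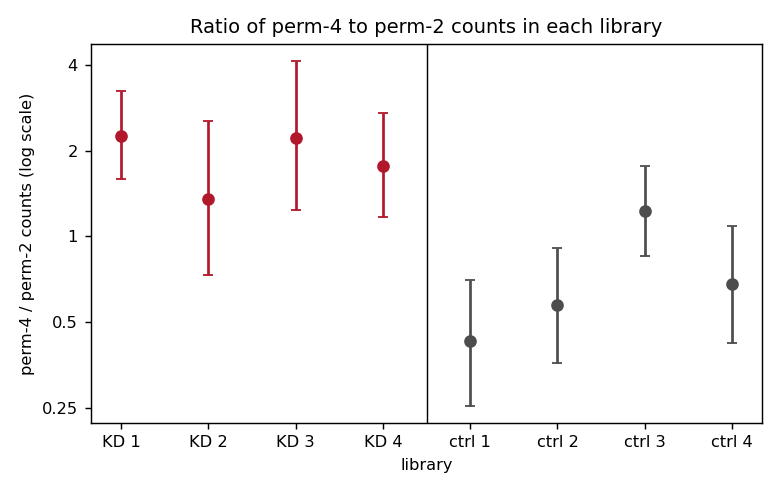
Ratio of *perm-4* to *perm-2* counts (y axis, log scale) in each library, with *ztf-11* KD in red on the left and control in grey on the right, and bars for the exact 95% interval of counting error. The *ztf-11* KD points lie between 1.35 and 2.25 and the control points between 0.429 and 1.23, and the intervals of *ztf-11* KD replicate 2 and control replicate 3 overlap.

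Some counts may be affected by an overlapping gene. The strand setting of the counting and its handling of reads on several transcripts are not given in the sources used here. In the WBcel235 annotation *cpg-3* shares 36 exon bases with *R06C7.6* on the other strand, which had 49 to 169 counts per library, a number like that of *cpg-3* itself. *chs-1* shares 5 exon bases with *T25G3.3* on the same strand, which had 5772 to 9045 counts. No strand setting would separate the reads of these genes. The overlapping genes of *perm-2* (*C44B12.6*, 25 bases, 0 to 2 counts) and *egg-1* (*B0244.9*, 42 bases, 0 to 12 counts) were nearly silent.

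The stage of the embryos was looked at through marker genes, whose part in the eggshell values was not tested. The list of later tissue differentiation genes holds muscle myosin genes and cuticle collagen genes such as *dpy-17*. The study reported collagen and muscle genes among those higher after *ztf-11* knockdown. In that list stage and knockdown cannot be told apart. The mean centred level of 16 oocyte and maternal RNA-binding genes was 0.05, -0.07, 0.02 and -0.71 in the *ztf-11* KD libraries, against -0.21, 1.02, -0.0012 and -0.11 in control libraries. That of 12 early zygotic regulators was -0.23, -0.26, 0.07 and -0.41 in *ztf-11* KD, against -0.37, 1.19, -0.0067 and 0.0077 in control libraries. Control replicate 2, the highest for the eggshell genes, was by far the highest library for both lists and the lowest, at -0.62, for 12 genes of later tissue differentiation, which were at 0.32, 0.36, 0.04 and 0.29 in *ztf-11* KD, against -0.11, -0.62, -0.05 and -0.23 in control libraries. The mean of the eggshell genes did not follow the maternal list throughout, being at 0.37 in *ztf-11* KD replicate 1 where that list was at 0.05, and at -0.15 in *ztf-11* KD replicate 4 where it was at -0.71. That mean weighs rare and abundant RNAs alike, and *perm-4* was at 1.38 in *ztf-11* KD replicate 1. In *ztf-11* KD replicate 4 only *perm-4* (0.50) and *chs-1* (0.29) were above 0. *cbd-1*, *cpg-1*, *cpg-2* and *egg-1* were there at -0.47, -0.37, -0.53 and -0.41.

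**Figure D5:**
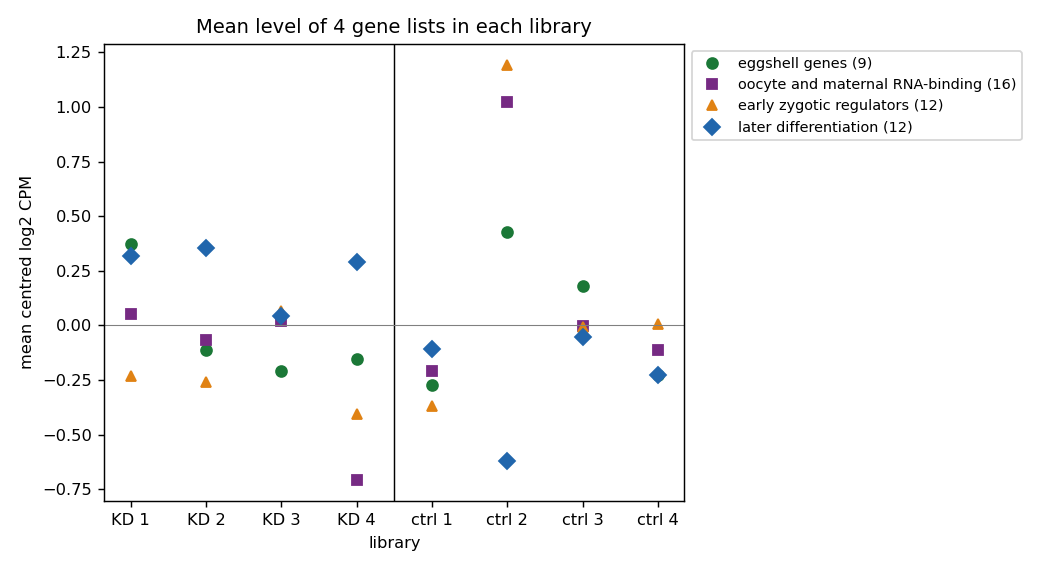
Mean centred log2 CPM (y axis) of the eggshell genes and of 3 lists of stage markers in each library (x axis, *ztf-11* KD left of the black line and control right of it). In control replicate 2 the eggshell genes are at 0.43, the oocyte and maternal genes at 1.02, the early zygotic regulators at 1.19 and the later differentiation genes at -0.62.

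None of the members of these lists was called in edgeR, and at an unadjusted p under 0.05 were 0 of the oocyte and maternal genes, 1 of 12 early zygotic regulators (lower) and 4 of 12 later differentiation genes (higher), beside 12.8% of all transcripts tested (8.8% higher and 3.99% lower). All 16 oocyte and maternal genes were below 0, with a median log2 fold change of -0.45, and without control replicate 2 this became 11 below and 5 above 0 with a median of -0.02. *spn-4*, a translational regulator, was at 161.1 ± 49.1 CPM in *ztf-11* KD and 224.0 ± 124.2 CPM in control embryos (SD, n = 4 each). The median was -0.56 for the early zygotic regulators, with 10 below and 2 above 0, and -0.12 without control replicate 2. *sdz-28* of this list had 47.5 ± 8.82 CPM in *ztf-11* KD and 82.8 ± 49.0 CPM in control embryos (unadjusted p = 0.0409 and adjusted p = 0.387 in edgeR). The later differentiation genes had a median of 0.07, with 9 above and 3 below 0, and without control replicate 2 a median of 0.01, with 7 above and 5 below. In that setting 3 of the 12 had an unadjusted p under 0.05 in edgeR, all higher in *ztf-11* KD embryos. Over all 8 libraries the largest log2 fold change of the list was that of *ifb-2*, at 2.82 on a mean of 16.5 counts. The muscle myosin *unc-54* of this list was at 2913 ± 1066 CPM in *ztf-11* KD and 1441 ± 391 CPM in control embryos, with an adjusted p of 0.367 in edgeR and 0.0722 in DESeq2. DESeq2 called 2 of these 12 genes, *unc-54* and the myosin *myo-2* (DESeq2 adjusted p = 0.0569), beside 2.64% of all transcripts. The other most counted genes of the list, *dpy-17* and *dlg-1*, had log2 fold changes of only 0.09 and 0.06. Of 11 genes of the adult mother and of sperm only the yolk protein gene *vit-5* passed the filter, at 0.342 ± 0.222 CPM in *ztf-11* KD and 1.01 ± 0.177 CPM in control embryos. *vit-5* had an unadjusted p of 0.0192 and an adjusted p of 0.383 in edgeR, on a mean of 28.9 counts. All its *ztf-11* KD libraries were below every control, beside 2.46% of all transcripts tested. Of the 11 genes 5 were at 0 in every library, as were *act-1*, *plk-1* and *lin-41*, so that a 0 in these tables does not show that an RNA was absent.

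Further lists held genes of egg activation, of chitin and chondroitin synthesis, other chondroitin proteoglycan genes and chitinases, and edgeR called none of them. DESeq2 called 1 of them, *cpg-22*, beside 2.64% of all transcripts it tested. The list of egg activation and the permeability barrier had 13 tested genes, 4 above and 9 below 0, with a median log2 fold change of -0.12 that was 0.03 without control replicate 2. At an unadjusted p under 0.05 *fasn-1*, the fatty acid synthase that supplies the lipid barrier, had 3731 ± 237 CPM in *ztf-11* KD and 3065 ± 227 CPM in control embryos, a log2 fold change of 0.28 (SE 0.10, edgeR adjusted p = 0.383). *perm-5*, which encodes a lipid-binding protein needed for the barrier, averaged 206.9 ± 16.96 CPM in *ztf-11* KD and 155.9 ± 4.61 CPM in control embryos, and *sep-1*, the separase needed for cortical granule release, 83.1 ± 8.63 CPM in *ztf-11* KD and 121.8 ± 48.8 CPM in control embryos. Every *ztf-11* KD library was above every control for 2 of the 13 genes, *fasn-1* and *perm-5*, which was the case for 3.61% of all transcripts tested. No gene of this list had every *ztf-11* KD library below every control.

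Of 11 tested genes that make sugar precursors, chitin or chondroitin chains 4 were above and 7 below 0 (median -0.06, and -0.145 without control replicate 2). *gna-1*, an enzyme of the hexosamine pathway that feeds chitin synthesis, had 18.2 ± 2.56 CPM in *ztf-11* KD and 25.6 ± 4.195 CPM in control embryos, and *sqv-6*, the xylosyltransferase that starts chondroitin chains, 8.38 ± 1.18 CPM in *ztf-11* KD and 11.7 ± 1.83 CPM in control embryos. Both had an unadjusted p under 0.05 and adjusted p of 0.383 and 0.387 in edgeR. The conditions did not overlap for 2 of the 11 genes, *sqv-6* and *sqv-8*, both lower after knockdown. The highest knockdown value and the lowest control value were 10.07 and 10.15 CPM for *sqv-6*, and 89.79 and 90.3 CPM for *sqv-8*. Such a separation downwards was found for 2.46% of the tested transcripts. *sqv-8* had an unadjusted p of 0.214 in edgeR. The other chondroitin proteoglycan genes were 5 above and 5 below 0 (median 0.07), with an unadjusted p under 0.05 for *cpg-7* and *cpg-22*, both higher. *cpg-22*, with a DESeq2 adjusted p of 0.0317, had 22.6 ± 4.34 CPM in *ztf-11* KD and 11.8 ± 3.16 CPM in control embryos. It was the only gene of this list with every *ztf-11* KD library above every control (1 of 10, beside 3.61% of all transcripts tested). The 4 chitinase genes were 2 above and 2 below 0 (median -0.04, and 0.0092 without control replicate 2), and *cht-1*, the most counted, had 1361 ± 154 CPM in *ztf-11* KD and 1714 ± 637 CPM in control embryos. Of the 4 tested reference genes 1 was above and 3 were below 0 (median -0.35), and *tbb-2* and *ama-1* had an unadjusted p of 0.0462 and 0.0432 in edgeR, both lower, with *tbb-2* at 2445 ± 131 CPM in *ztf-11* KD and 3135 ± 752 CPM in control embryos.

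Outside the group, the transcripts whose log2 CPM went most closely with the mean eggshell level over the 8 libraries were picked from 6493 with a symbol and a mean of at least 10 CPM. The highest r was that of *Y110A2AR.1* (0.91), followed by *vps-28* (0.91), a subunit of the ESCRT-I sorting complex, *uev-1* (0.89), a ubiquitin-conjugating enzyme variant, *meg-2* (0.88), a germ granule gene, *zyg-11* (0.87), a substrate receptor of a CUL-2 ubiquitin ligase, *obr-4* (0.87), *rgs-11* (0.86) and *Y52B11A.8* (0.85). All 8 had their highest value in control replicate 2. At the other end lay *inx-17* (-0.91), an innexin gene, *tub-2* (-0.91), the hexokinase gene *hxk-2* (-0.88) and *nhr-173* (-0.85). *vps-28* ran only between 32.6 and 42.2 CPM and *uev-1* between 91.6 and 108.5 CPM, a smaller ratio of highest to lowest value than that of any eggshell gene. The values are extremes among many transcripts over 8 libraries that share depth and embryo mix, and are given as a description.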

How the data were processed

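RNA-seq libraries of whole embryos, 4 *ztf-11* KD and 4 control, were grouped by the deposited labels. The deposited values are unnormalized counts of uniquely mapped reads for 50606 RefSeq transcripts, which the authors made by adaptor trimming with fastx, mapping to *ce10* with TopHat2 and counting with featureCounts. Versions, the strand setting and the handling of reads on several transcripts are not given in the sources used here. Symbols came from a RefSeq gene table of WBcel235 (45715 transcripts matched, with 87.7% of counts). Since the builds differ, no coordinates are given, and lengths, overlaps and neighbours are those of WBcel235.

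Counts were analysed across all transcripts with edgeR 4.0.16 in R 4.3.3: filterByExpr (minimum count 10), TMM, robust glmQLFit and glmQLFTest on condition only, with p-values adjusted by Benjamini and Hochberg over the whole table and called under 0.1. The study used DESeq2 for its differential expression. Here DESeq2 1.42.0 was an alternative, with the threshold, filters, scaling, counts summed per gene, a replicate block and each library left out in turn. Log2 CPM used a prior count of 2. The scripts were tested on simulated data. Totals were 39343105 to 45609675 counts. The CV between cultures of a condition exceeded the counting CV for each eggshell gene except *perm-2* in control embryos. For *egg-2* in *ztf-11* KD the 2 were close, at 7.86% between cultures and 5.93% from counting. No library was a copy of another (chi-square divided by its degrees of freedom 33.7 or more within a condition). Intervals of count ratios are exact binomial (Clopper-Pearson) and cover counting error only.

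The genes, lists and tests were chosen with earlier results of these data known. Named are the 9 eggshell genes, *ztf-11*, genes from the 3 with the highest mean count in each list, and the 8 highest and 4 lowest transcripts by r with the mean eggshell level. *perm-5*, *sep-1*, *gna-1*, *sqv-6*, *cpg-7*, *cpg-22*, *myo-2* and *ifb-2* were named after their values were seen. Of the genes on the other lists, those with no matching symbol were not analysed here.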

Additional observations from a re-analysis of the deposited data

How the results depend on the processing

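No eggshell gene was called under any of the 15 alternatives to the reported fit, with adjusted p between 0.302 and 0.994, and 130 of their 135 values kept their direction. The exceptions all came from leaving out a library: *cbd-1* was 0.0851 without control replicate 2 (range -0.387 to 0.0851 with each library left out), *cpg-1* -0.0061 without control replicate 4 (-0.0061 to 0.336), *cpg-3* -0.0827 without *ztf-11* KD replicate 1 and -0.111 without control replicate 3 (-0.111 to 0.171), and *egg-2* 0.0509 without control replicate 2 (-0.22 to 0.0509). With each library left out, the median of the 9 genes ran from -0.22 to 0.0851 and was above 0 only without control replicate 2, and the range of the mean level ran from 0.602 to 0.696. Under the other alternatives that range was 0.605 to 0.717. For the whole table, DESeq2 called 435 transcripts, edgeR 6 with no filter beyond 1 count, and 0 to 3 with a library left out (3 without control replicate 2, 2 without control replicate 3). *ztf-11* passed the threshold in DESeq2 (-2, adjusted p = 1.21e-07), with no filter beyond 1 count (-1.98, edgeR adjusted p = 0.00312) and without control replicate 2 (-1.70) or 3, in a range of -2.13 to -1.70. The cause of these changes was not tested.

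Replicate numbers were not used to pair the samples in the reported fit. The deviations of same-numbered libraries from their condition means correlated at 0.00524, -0.3, -0.642 and -0.206. Libraries of different numbers were not compared in this way, so the check cannot show whether same-numbered cultures were handled together. With a replicate block edgeR called 0 transcripts, 708 had an unadjusted p under 0.05, the median of the eggshell genes was -0.0603 and *ztf-11* was at -1.93 (adjusted p = 0.706). The block changed no call of an eggshell gene.

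Depth limits *perm-2* and *perm-4*, which rest on 18 to 108 counts per library. The list medians without control replicate 2 were added after seeing the data. The wide intervals do not show that the conditions had equal levels.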
